A study of Mus musculus with 183 samples.

Results

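Nfkbid and 7 further genes of the NF-kB system were followed through the RNA half-life experiment of mouse embryonic stem cells (mESCs). The set holds the Rel proteins Rela, Relb, Nfkb1 and Nfkb2, the classical inhibitors Nfkbia, Nfkbib and Nfkbie, and the nuclear IkB protein gene Nfkbid. These 8 genes were listed by name out of 53380 genes in the count table, and all 8 passed the filter on low counts. The members were chosen by their mock levels, half-lives and binding ratios in these data, so those values are described here without a test. The experiment comprised 47 libraries of total RNA depleted of ribosomal RNA, with ERCC spike-ins added at lysis, of 24440935 to 34114250 counts each, from 2 mESC lines that carry Cre-ERT2 at Rosa26. Clone 5F has floxed Skiv2l alleles (Skiv2l fl/fl), which encode the helicase of the Ski complex that assists the cytoplasmic exosome. Clone 7E is Aven-/-, carries the 3xFLAG-Avi tag on both Skiv2l alleles and has BirA-V6 on the other Rosa26 allele (so spelled in the labels, whereas the study's table of cell lines gives BirA-V5), and its sample titles and the study's methods add the floxed Skiv2l. Each line was sampled without 4-hydroxytamoxifen (4OHT, which activates Cre-ERT2), called day 0, and after 4 days of 0.1 µM 4OHT, called day 4. In each state, transcription was blocked by actinomycin D for 120, 240 or 360 min, or the cells received DMSO alone for 360 min, which served as 0 min and is called mock. Each of the 16 groups had 3 libraries, except the one of clone 5F at 120 min of day 0, which had 2. By the study's methods the replicates are technical, and each line is 1 clone, so the SDs say nothing of how separate cultures or other clones would vary. The lines differ in AVEN, in the tag, in BirA, in the level of Skiv2l before 4OHT and as clones, which cannot be told apart. Neither can Skiv2l deletion, 4OHT itself and the days in culture.

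NF-kB is a family of dimeric transcription factors that are held in the cytoplasm by IkB proteins and enter the nucleus after IkB kinases mark those inhibitors for destruction. Several of its own regulators, the IkB gene Nfkbia above all, are also its target genes and are known for short-lived mRNAs, which makes the pathway a textbook case of negative feedback. Nfkbid encodes IkBNS, an atypical IkB that acts in the nucleus and is known mainly from lymphocytes and macrophages, whereas embryonic stem cells are known for low NF-kB activity.

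The labels were checked first. Skiv2l was no lower in the clone 5F libraries labelled day 4 (4134 ± 296 normalized counts, against 4163 ± 36.5 at day 0; SD, n = 3 each), and in clone 7E it stood at 969 ± 67.5 at day 0 and 387.5 ± 19.1 at day 4. The directions given below for clone 5F are therefore those of libraries labelled day 4. A count over the whole gene also takes reads outside the deleted exons, and its part in these values was not tested. At day 0, before any 4OHT, the log2 difference of Skiv2l in clone 7E against clone 5F was -2.10 ± 0.06 (SE). The part of this difference in the comparisons below was not tested. Aven stood at 1004 and 974 in clone 5F and at 66.9 and 48.1 in clone 7E. All 7 embryonic stem cell markers reached 1 CPM in every mock group, with a summed level of 2748 to 2762 CPM at day 0 and 2465 to 2580 CPM at day 4 in clone 5F, and of 2722 to 2822 and 2273 to 2357 CPM in clone 7E. The summed level of 5 fibroblast markers was higher at day 4, at 5.61 to 6.43 and then 7.82 to 9.27 CPM in clone 5F and 2.27 to 2.79 and then 5.22 to 6.72 CPM in clone 7E. Thy1 rose most, from 2.97 to 4.47 CPM in clone 5F and from 0.932 to 2.88 CPM in clone 7E. In clone 5F, Col1a2 (0.682 and then 0.625 CPM) and Postn (0.0217 and then 0 CPM) were lower at day 4. The summed level was 13.3 to 23.7 CPM for 5 markers of macrophages and other blood cells, of which 1, Cd68, reached 1 CPM. Primitive endoderm markers differed between the lines, with 89.9 to 123 CPM in clone 5F and 10.7 to 12.2 CPM in clone 7E, and the part of these markers in the differences between clones and between days was not tested. The mock libraries of clone 7E at day 4 stood apart in their ERCC share, 0.640% to 0.659% of all reads, against 0.275% to 0.320% in the other 9 mock libraries.

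Sites for NF-kB in the promoters of the family were looked for because these genes are known to feed back on themselves. The kB motif, of 10 bases and searched on both strands, occurred in 4.51% of 32851 RefSeq promoter windows (GRCm38.p6, 250 bases before to 50 after each start), and in 5.06% of the windows of genes at the minimum level used here. The windows of the set held it in 6 of 10: in 1 of 3 of Nfkbid, in the single windows of Nfkbia and Nfkbie and in 3 of 3 of Nfkb2, but in none of Nfkbib or Rela. Nfkb1 and Relb had no window in the table. Only 55 windows (0.167%) held 2 or more separate matches, among them 1 of Nfkbid and 2 of Nfkb2. The Nfkb2 windows at chr19:46305445-46305744 and chr19:46305680-46305979 overlap and share 1 match, which is counted in each. A match describes the letters and not a bound site. The stretches with matches that overlap no annotated exon are shown 5′ to 3′ on the gene's strand, with the motif in capitals, and lie at chr7:30422156-30422259 (+) for Nfkbid, chr12:55492648-55492701 (-) for Nfkbia and chr17:45555569-45555628 (+) for Nfkbie.
Nfkbid: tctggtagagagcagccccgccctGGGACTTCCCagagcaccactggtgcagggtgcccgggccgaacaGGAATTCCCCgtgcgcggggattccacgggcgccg
Nfkbia: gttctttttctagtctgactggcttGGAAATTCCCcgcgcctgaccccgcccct
Nfkbie: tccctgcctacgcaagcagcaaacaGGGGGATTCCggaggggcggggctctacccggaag
The 2 matches of Nfkbid begin 226 and 181 bases upstream of the start on which this window was built, 1 of 3 listed for the gene. That start lies downstream of the gene's first annotated base, so both matches are inside the gene. The match of Nfkbia begins 29 bases and that of Nfkbie 106 bases upstream of the start of its window.

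The 3′UTRs were searched for ATTTA, the core of the AU-rich element of many short-lived mRNAs. Over 11421 coding genes at the minimum level, 68.5% of 3′UTRs held at least 1 copy, with a median of 1.30 per kb. Nfkbid (3′UTR of 559 nt) held 1 copy, Nfkbia (512 nt) 2, Nfkb1 (700 nt) 4 and Nfkb2 (133 nt) 1, whereas Nfkbib, Nfkbie, Rela and Relb held none. Per kb, Nfkbid had 1.79 copies and lay at percentile 60.7 of those genes, and Nfkbia had 3.91 copies at percentile 88.4. The densities of Nfkb1 (5.71 per kb, percentile 95.3) and Nfkb2 (7.52, percentile 97.8) were higher, that of Nfkb2 from 1 copy in 133 nt. By number of copies, Nfkb1 lay at percentile 72.0, Nfkbia at 50.9 and both Nfkbid and Nfkb2 at 31.5. A link between these copies and the half-lives given below was not tested. The nonamer TTATTTATT occurred in 7.6% of the genes and, in this set, in Nfkbia alone. Stretches of 30 bases around a copy, in capitals, lie at chr7:30428638-30428667 (+) for Nfkbid, chr12:55489607-55489636 (-) for Nfkbia, chr3:135584699-135584728 (-) for Nfkb1 and chr19:46311945-46311974 (+) for Nfkb2 (GRCm38).
Nfkbid: ggctacatcatcATTTAgaacccaatgtct
Nfkbia: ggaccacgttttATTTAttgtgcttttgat
Nfkb1: tgttgaATTTAtaaatgctATTTActtttt
Nfkb2: aatcgaaatcttATTTAaacctcaagccca

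Levels between genes were set side by side per kb of the principal transcript, as normalized counts of the mock libraries. In clone 5F at day 0 the order was Nfkb1 (530.4 ± 26.1 per kb), Nfkbia (344 ± 21.7), Nfkbib (289.6 ± 25.2), Rela (257 ± 21.4), Nfkb2 (159.9 ± 17.3), Relb (128 ± 3.85), Nfkbid (104 ± 9.56) and Nfkbie (61.2 ± 6.73; SD, n = 3). Among neighbours in that order, Nfkbib and Rela did not differ beyond their SDs. Nfkbid thus ranked 7 of 8 there, but 4 of 8 in clone 5F at day 4 (309 ± 13.7 per kb) and 5 of 8 in clone 7E at day 0 (194.5 ± 2.45) and day 4 (227 ± 4.62). The place of Nfkb1 depends on the length used: its annotated exons cover 12061 nt and its principal transcript 4117 nt, and per kb of all exons it ranked 4 or 5 and Nfkbia ranked 1 in every group.

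Nfkbid (chr7:30421732-30428746, + strand) was the gene of the set whose mock level differed most between groups. In clone 5F its normalized counts, which are counts divided by the library's size factor, were 219, 225 and 189 at day 0 and 646, 597 and 645 at day 4. In clone 7E they were 400.0, 391 and 399 at day 0 and 472, 453 and 465 at day 4. The 4 groups did not overlap: every library of clone 5F at day 0 lay below 226 and every library of clone 5F at day 4 above 597, with both states of clone 7E between them. The means were 211 ± 19.5, 629 ± 27.9, 397 ± 4.99 and 463 ± 9.42 (SD, n = 3) in that order. Day 4 was thus 2.98-fold above day 0 in clone 5F, a log2 difference of 1.57 ± 0.08 (SE of the edgeR fit), and 1.17-fold in clone 7E (0.22 ± 0.07). At day 0, clone 7E was 1.88-fold above clone 5F (0.90 ± 0.08), and the 2 comparisons that start from clone 5F at day 0 share those 3 libraries. The day 4 difference of clone 7E minus that of clone 5F was -1.35 ± 0.11 on the log2 scale. When the replicate numbers were dropped 1 at a time, the clone 5F difference ranged from 1.48 to 1.66 and the clone 7E difference from 0.22 to 0.23. The share of all genes whose libraries did not overlap was not counted, here or for the genes below. A lack of overlap therefore describes these libraries and sets no gene apart from the others. Between the days, edgeR called 22.6% of all genes in clone 5F and 39.9% in clone 7E.

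**Figure D1:**
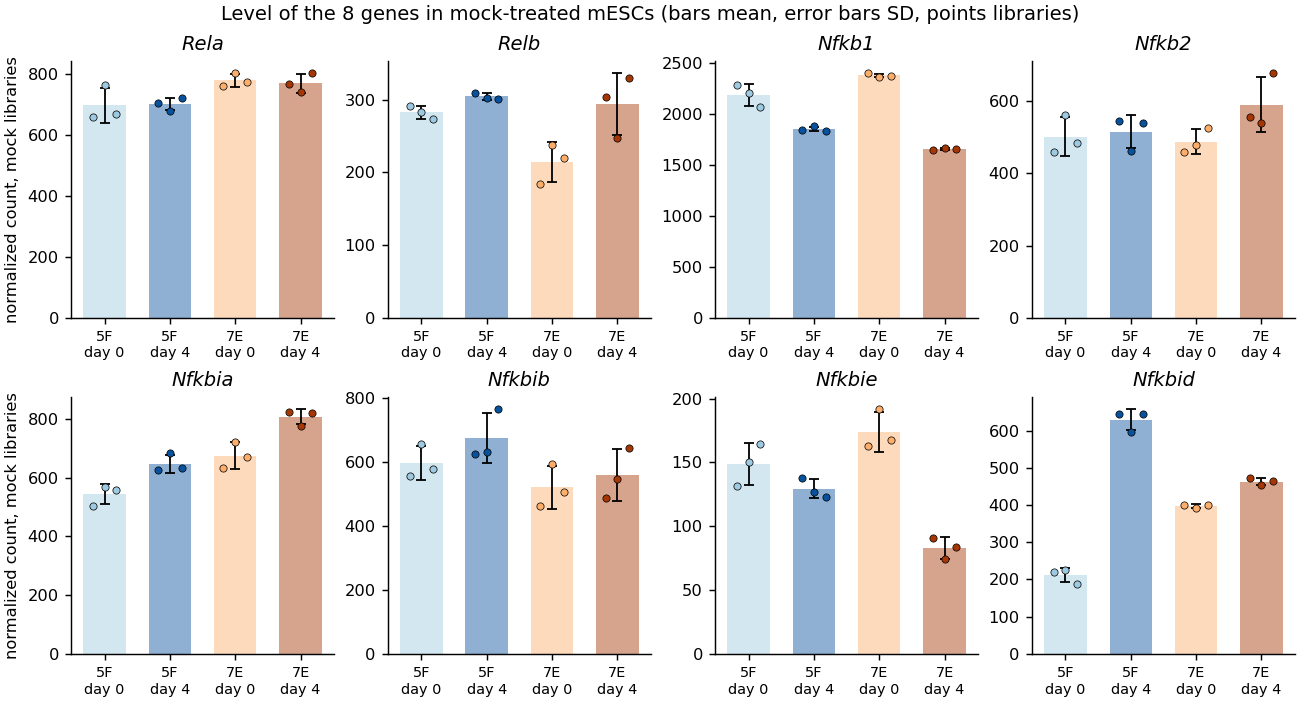
Normalized counts of the 8 genes in the mock libraries (vertical axes, each from 0) of clones 5F and 7E at day 0 and day 4 of 4OHT. Bars are means of 3 libraries, error bars are SDs and points are libraries: the 3 Nfkbid points of clone 5F at day 4 (597 to 646) lie above all the others, and the 3 Nfkbie points of clone 7E at day 4 (73.9 to 90.5) below all the others.

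Among the classical inhibitors, Nfkbia (chr12:55489410-55492647, - strand) encodes IkBa, which is destroyed on pathway activation and remade from its own induced mRNA. Its normalized counts were 504, 568 and 557 in clone 5F at day 0 and 626, 683 and 632 at day 4. In clone 7E they were 631, 722 and 670.2 at day 0 and 823, 777 and 819 at day 4. Day 4 was higher in both lines without overlap, by nearly the same step, 0.25 ± 0.07 in clone 5F and 0.26 ± 0.07 in clone 7E (log2 difference ± SE), and clone 7E exceeded clone 5F at day 0 by 0.31 ± 0.07. The step between the days was thus smaller for Nfkbia than for Nfkbid in clone 5F and of similar size in clone 7E.

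Nfkbie (chr17:45555703-45563169, + strand), which encodes IkBe, was the lowest gene of the set and was lowest of all in clone 7E at day 4. It was counted at 132, 150.5 and 164 in clone 5F at day 0 and at 137, 127 and 123 at day 4, which overlapped. In clone 7E it was 163, 192 and 167 at day 0 and 90.5, 73.9 and 84.0 at day 4, which did not. The log2 difference between the days was -0.20 ± 0.12 in clone 5F and -1.07 ± 0.12 in clone 7E, where day 4 stood at 0.476 of day 0. In that line Nfkbie was thus lower at day 4, where Nfkbia and Nfkbid were higher on this scale.

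Nfkbib (chr7:28758251-28767512, - strand), which encodes IkBb, overlapped between the days in both lines. Its counts ran from 556 to 655 and from 626 to 764 in clone 5F, and from 463 to 593 and from 486 to 644 in clone 7E, with differences of 0.17 ± 0.10 and 0.10 ± 0.10. Its exons share 314 nt with Ccer2 and 42 nt with Sirt2 on the opposite strand, which these libraries do not separate. Ccer2 was at most at 2.03 normalized counts in mock libraries.

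Of the Rel proteins, Nfkb1 (chr3:135584655-135691547, - strand), which encodes p105 and its product p50, was lower at day 4 in both lines without overlap. The libraries of clone 5F read 2281, 2202 and 2068 at day 0 and 1842, 1877 and 1836 at day 4. Those of clone 7E read 2398, 2366 and 2369.7 at day 0 and 1644, 1662 and 1659 at day 4. The log2 differences were -0.24 ± 0.05 and -0.52 ± 0.05, and the difference between them was -0.28 ± 0.07. Rela (chr19:5637483-5648130, + strand), which encodes the transactivating subunit p65, overlapped between the days in both lines, at 659.9 to 765 and 681 to 722 in clone 5F and 761 to 803 and 741 to 803 in clone 7E. Its differences were 0.01 ± 0.07 and -0.02 ± 0.06.

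Relb and Nfkb2 encode the pair that carries the alternative NF-kB pathway, p100/p52 being the product of Nfkb2. Relb (chr7:19606217-19629438, - strand) was at 291, 283 and 274 in clone 5F at day 0 and at 309.9, 302 and 302 at day 4. It was at 184, 237 and 220.3 in clone 7E at day 0 and at 304, 247 and 330.3 at day 4. The days did not overlap in either line, but the difference in clone 5F, 0.11 ± 0.10, was about the size of its SE. In clone 7E day 4 was higher by 0.46 ± 0.10, and at day 0 clone 7E lay 0.40 below clone 5F (-0.40 ± 0.10). Nfkb2 (chr19:46304320-46312385, + strand) differed by 0.03 ± 0.09 in clone 5F, where the days overlapped (459 to 563 and 463 to 546). In clone 7E, where they did not (459 to 527 and 539 to 678), it differed by 0.28 ± 0.09. Its exons share 299 nt with Psd and 531 nt with AC114539.1 on the opposite strand. Psd reached 15.9 to 48.5 normalized counts in mock libraries, and AC114539.1 is not in the count table.

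The directions in clone 7E depend on the scale. Size factors set the bulk of genes equal between libraries. Scaled instead to each library's own ERCC total, the median of all genes at day 4 against day 0 was -0.07 in clone 5F and -1.10 in clone 7E, and it was -0.17 between the clones at day 0 (log2). Such a shift is that of the higher ERCC share of the clone 7E day 4 libraries, and in bulk RNA fewer cells and less RNA per cell cannot be told apart. On the ERCC scale Nfkbid in clone 7E stood at -0.87 at day 4 against day 0, Nfkbia at -0.84, Nfkb2 at -0.82, Nfkbib at -0.995 and Relb at -0.64, each with the sign turned. Relative to the shift of all genes these were 0.23, 0.26, 0.28, 0.11 and 0.47, close to the values on size factors. In clone 5F Nfkbid stood at 1.50 on the ERCC scale and Nfkbia at 0.18. The statements that a gene was higher or lower in clone 7E at day 4 are therefore relative to the bulk of genes.

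**Figure D2:**
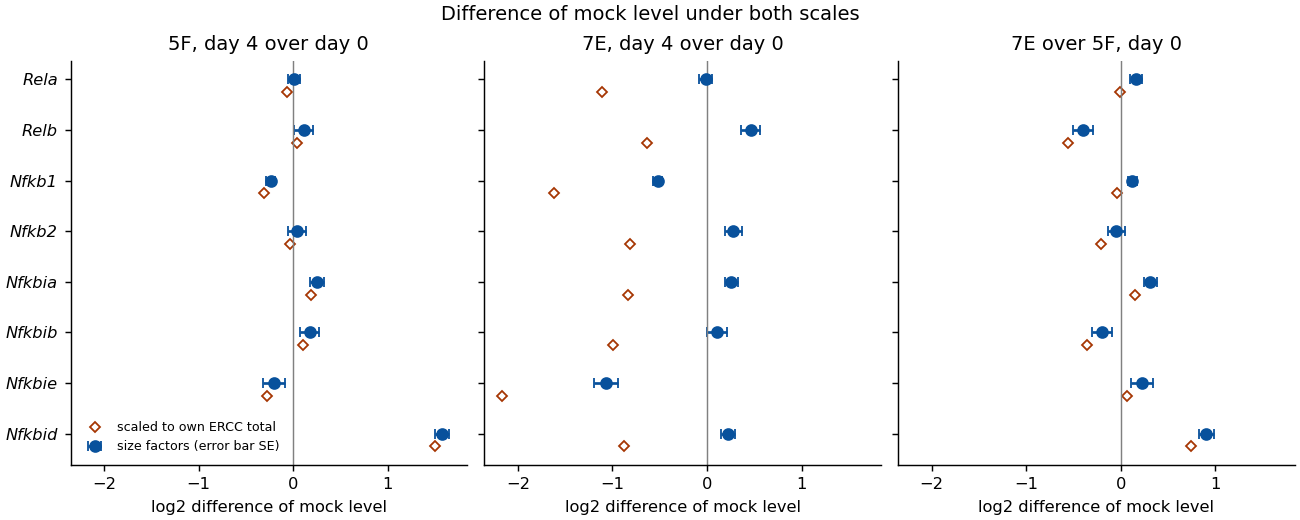
Log2 difference of the mock level (horizontal axes) for each of the 8 genes in 3 comparisons. Filled points are size-factor scaled with the SE as error bar, and open diamonds are scaled to each library's own ERCC total: in the middle panel all 8 diamonds lie left of 0, by 0.64 to 2.17, whereas in the left panel Nfkbid stands at 1.57 and 1.50 on the 2 scales.

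After actinomycin D, Nfkbid and Nfkbia were the fastest falling mRNAs of the set. Of the mock level of Nfkbid, 15.5% was left at 120 min in clone 5F at day 0, 8.75% at day 4, 7.54% in clone 7E at day 0 and 10.4% at day 4. At 240 min 3.04% to 5.10% was left and at 360 min 2.89% to 4.60%. For Nfkbia these ranges over the 4 states were 9.55% to 13.4%, 2.52% to 3.73% and 1.59% to 2.46%. Most of both mRNAs was gone at the earliest time point, and the raw counts behind the last one were few, 13 to 63 reads for Nfkbid and 17 to 50 for Nfkbia per library.

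**Figure D3:**
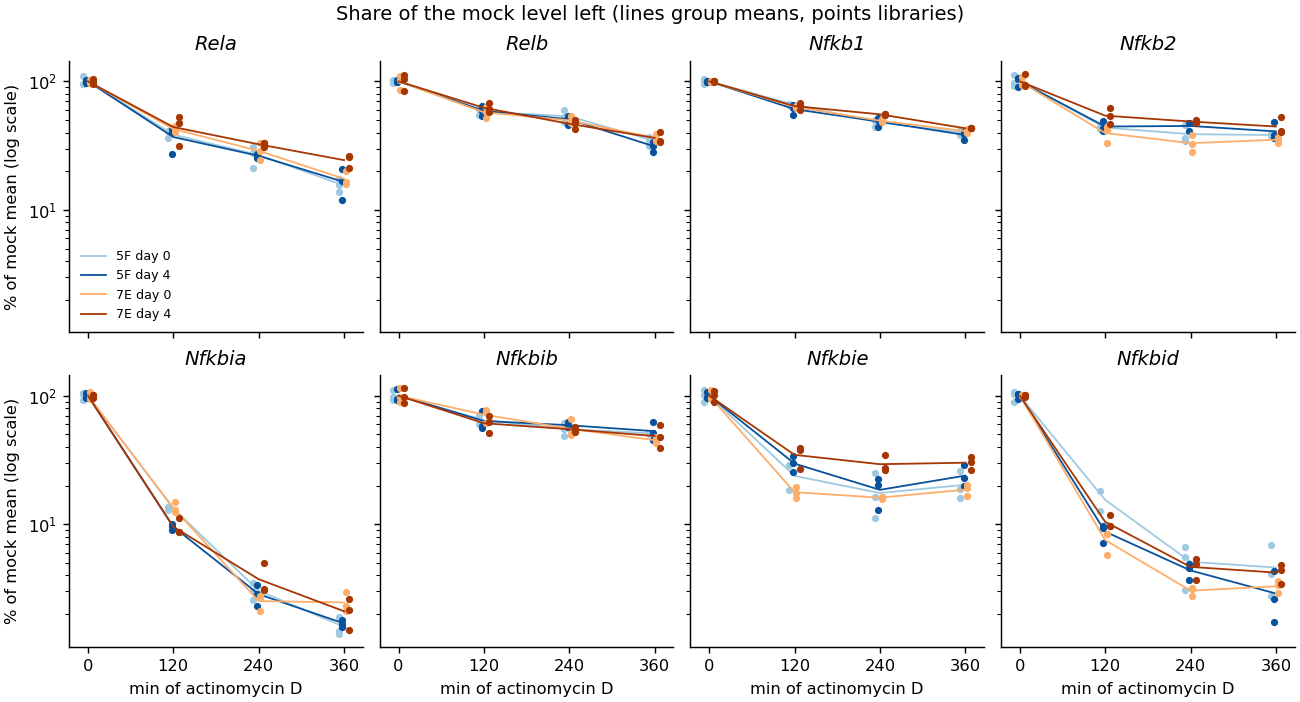
Share of the mock mean left (vertical axes, percent, log scale) over 0 to 360 min of actinomycin D for the 8 genes. Lines join group means and points are libraries of the 4 states: the group means of Nfkbid and Nfkbia fall below 16% by 120 min and below 5% by 360 min, whereas those of Nfkb1, Nfkb2, Relb and Nfkbib stay above 31%.

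Half-lives were fitted as straight lines to ln(normalized count + 1) over all times. Nfkbid had a half-life of 80.4 ± 11.3 min in clone 5F at day 0 and 73.4 ± 10.2 min at day 4 (± SE of the fit). In clone 7E it was 76.4 ± 13.4 min at day 0 and 81.7 ± 12.6 min at day 4. The 4 values lie within 1 SE of each other. In the edgeR fit the decay slope of Nfkbid differed between the days by -0.08 ± 0.15 log2 per h in clone 5F and 0.09 ± 0.14 in clone 7E. After the block, day 4 over day 0 in clone 5F was 1.69-fold at 120 min, 2.55-fold at 240 min and 1.87-fold at 360 min, against 2.98-fold in mock. These later values rest on group means of 9.71 to 55.1 normalized counts, and on 2 libraries at 120 min of day 0. Among 12102 to 12279 genes at the minimum level, whose median half-life was 275 to 277 min, between 0.774% and 2.45% were shorter-lived than Nfkbid.

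The decay of Nfkbid was not log-linear, so its half-life depends on the times used. From mock to 120 min alone the step half-lives were 44.6, 34.1, 32.2 and 36.8 min in the order of the states above. Between 240 and 360 min its level changed little, with 66.1% to 108% of the 240 min mean left. A fit to the mock and 120 min libraries alone, added after the values were seen, put the slope difference between the days at -0.41 ± 0.11 log2 per h in clone 5F, 0.24 ± 0.09 in clone 7E and -0.52 ± 0.11 between the clones at day 0. The one in clone 5F and the one between clones rest on the pair of 120 min libraries of clone 5F without 4OHT (26.8 and 38.6 normalized counts).

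Nfkbia was shorter-lived still over all times. Its half-life was 60.9 ± 4.72 and 63.2 ± 6.43 min in clone 5F and 66.0 ± 7.75 and 67.0 ± 7.48 min in clone 7E, at day 0 and day 4, and between 0.212% and 0.628% of genes were shorter-lived. The SE ranges of Nfkbia and Nfkbid overlapped in all states but clone 5F at day 0. Its slope differences between the days were 0.02 ± 0.12 and -0.003 ± 0.12 log2 per h over all times, and -0.236 ± 0.075 in clone 5F and -0.242 ± 0.065 in clone 7E in the mock and 120 min libraries alone. From mock to 120 min its step half-lives were 41.2 and 35.4 min in clone 5F and 41.4 and 35.4 min in clone 7E, so that in this first step Nfkbid was the shorter-lived of the pair in clone 5F at day 4 and in clone 7E at day 0.

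Nfkbie fell to 17.8% to 34.6% by 120 min and then stayed level, with 18.6% to 30.1% left at 360 min. Its half-lives of 158 to 226 min therefore describe neither phase. In the step to 120 min it was 57.9 and 68.3 min in clone 5F and 48.1 and 78.4 min in clone 7E, at day 0 and day 4. Clone 7E at day 4, where the mock level of Nfkbie was lowest, kept the highest share at every time. Its mean normalized counts at 120, 240 and 360 min were 28.7, 24.3 and 24.9, against 30.9, 28.0 and 32.3 at day 0. The mock means were 82.8 and 174. The 2 days thus differed more in the mock level than in what was left. The slope difference of Nfkbie between the days in clone 7E was 0.12 ± 0.10 log2 per h over all times, where positive means slower decay. In the mock and 120 min libraries alone it was 0.48 ± 0.12. In clone 5F these values were 0.04 ± 0.10 and 0.16 ± 0.12. Slower decay was not tested.

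Rela had half-lives of 138 ± 10.6 and 144 ± 15.7 min in clone 5F and 148 ± 10.2 and 184 ± 22.6 min in clone 7E, with 15.5% to 24.4% left at 360 min. Over all times, Rela was the fastest falling of the Rel proteins. By 120 min this also held except in clone 7E at day 0, where Nfkb2 had 39.6% left and Rela 42.6%. Relb ranged from 229 to 265 min, Nfkb1 from 267 to 312 min and Nfkb2 from 252 to 329 min, all near the median of all genes. Nfkb2 lost most of what it lost by 120 min (39.6% to 54.1% left) and kept 35.1% to 44.5% at 360 min, and Nfkb1, with 38.2% to 43.1% left at 360 min, also fell fastest in the first 120 min (step half-lives of 167 to 198 min). Nfkbib was the longest-lived at 317 to 419 min.

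**Figure D4:**
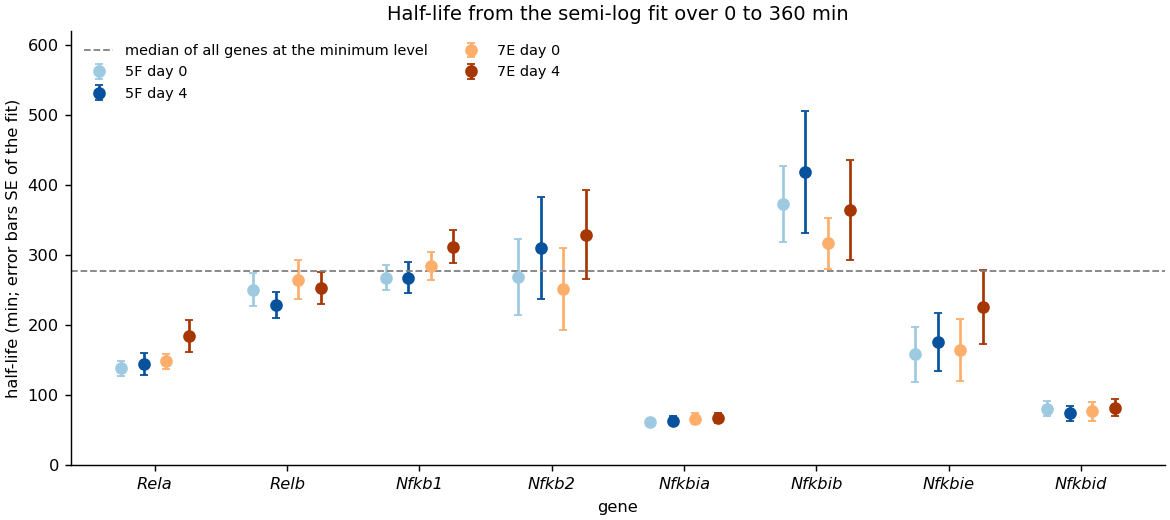
Half-life in min (vertical axis) of the 8 genes in the 4 states, from the fit over 0 to 360 min, with the SE of the fit as error bar and the median of all genes at the minimum level (275 to 277 min) as a dashed line. Nfkbia (60.9 to 67.0 min) and Nfkbid (73.4 to 81.7 min) lie lowest and Nfkbib (317 to 419 min) highest.

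The genes whose levels ran most like Nfkbid over the 16 groups of line, day and time were Cenpe (Pearson r = 0.991), a kinetochore motor, Nop56 (0.990), a nucleolar protein, Ppp1r15a (0.989), a stress-induced phosphatase subunit, Rexo5 (0.989), an RNA exonuclease, and Urb1 (0.988), a ribosome biogenesis factor. These r are over log2 group means of 11166 genes, given as descriptions, and share the loss of RNA over the time course, which most genes show. Of the 5, only Ppp1r15a was of like half-life (76.1 to 85.0 min), and it stood 1.33-fold higher at day 4 in both lines. Nop56 stood 1.57-fold higher at day 4 in clone 5F and the other 3 genes 1.15-fold to 1.16-fold, all below the 2.98-fold of Nfkbid. Within the set, Nfkbia ran most like Nfkbid (0.963, rank 564) and Nfkb1 least (0.808, rank 8505).

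The binding of decay factors was read from the authors' relative binding ratios. CRAC recovers the RNA crosslinked to a tagged protein, here MTR4, the helicase of the nuclear exosome, SKIV2L, XRN1, the cytoplasmic 5′ to 3′ exonuclease, and AVEN, a partner of the Ski complex. For each mRNA the ratios to MTR4, SKIV2L and XRN1 sum to 1, and AVEN is given relative to the same 3. The libraries were pooled and the table gives no counts for these ratios, so their depth and replicate error are unknown. Of 7240 mRNAs listed, 6 belong to the set, and Nfkbie and Relb are not listed.

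The Nfkbid ratio was 0.147 for MTR4 (percentile 6.92 of all listed mRNAs), 0.419 for SKIV2L (78.7), 0.434 for XRN1 (70.8) and 0.572 for AVEN (92.9). It was thus low on the nuclear helicase and high on AVEN relative to medians of 0.319 and 0.295. Nfkbid was also a low mRNA in the tagged lines, with 3.52, 2.76 and 2.06 RPKM in the XRN1, SKIV2L and MTR4 lines. In the authors' further columns, which adjust each ratio for RPKM, the MTR4 ratio of Nfkbid was 0.197 (percentile 17.3) and its XRN1 ratio 0.340 (50.3). These adjusted ratios are not shares and need not sum to 1.

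Nfkbib had the highest ratios of the set for AVEN (0.719, percentile 96.9) and SKIV2L (0.481, 86.4). Nfkb2 leaned the other way, with 0.668 for MTR4 (percentile 93.3) and 0.163, 0.169 and 0.156 for SKIV2L, XRN1 and AVEN. Its RPKM-adjusted MTR4 ratio was 0.471 (78.4). Nfkb1 had the highest ratio of the set on XRN1 (0.527, percentile 86.4), but among the RPKM-adjusted XRN1 ratios Rela (0.498, percentile 83.2) lay above Nfkb1 (0.430, 71.0). Rela (0.368 for MTR4, 0.225 for SKIV2L, 0.407 for XRN1 and 0.430 for AVEN) and Nfkbia (0.391, 0.280, 0.329 and 0.304) lay nearer the medians, although the adjusted XRN1 ratio of Nfkbia was 0.215 (percentile 20.4). The short-lived pair of the set thus differed in these ratios, as Nfkbid was low on MTR4 and Nfkbia at percentile 64.5.

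**Figure D5:**
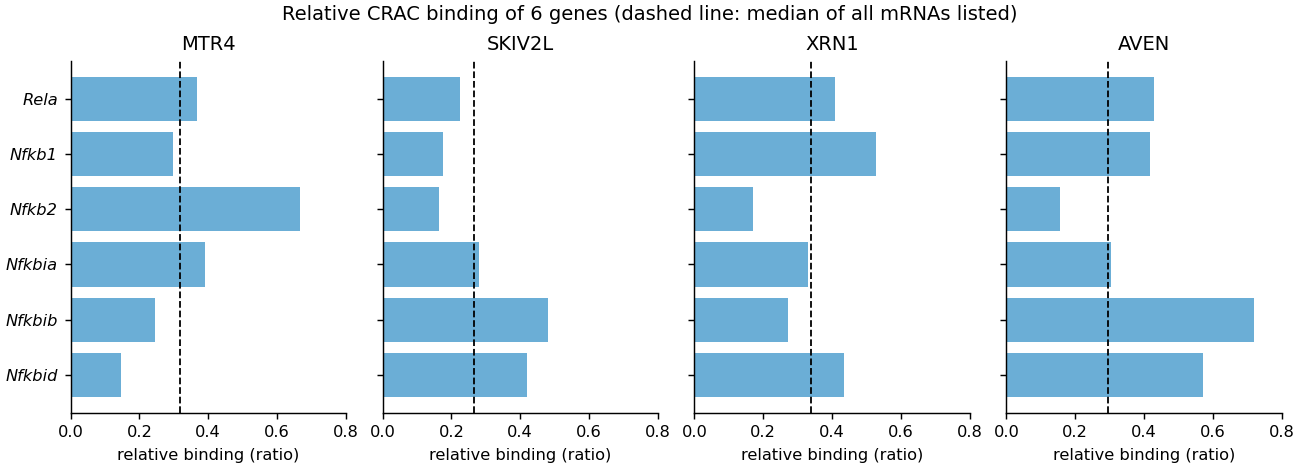
The authors' relative binding ratio (horizontal axes, 0 to 0.8) of 6 genes to MTR4, SKIV2L, XRN1 and AVEN, with the median over 7240 mRNAs as a dashed line. Bars have no error because libraries were pooled: Nfkb2 stands out on MTR4 (0.668), and Nfkbib (0.719) and Nfkbid (0.572) on AVEN.

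Around these genes, a list of 68 further pathway genes was tested in edgeR (quasi-likelihood, with p-values adjusted over all genes after Benjamini and Hochberg), and 60 of them passed the filter. In clone 5F, 8 of 60 were higher at day 4 and 5 lower (21.7%), against 22.6% of all 17209 genes (11.9% higher and 10.8% lower). In clone 7E, 23 were higher and 6 lower (48.3%), against 39.9% of all genes (20.5% and 19.4%). Between the clones at day 0, 16 were higher in 7E and 12 lower (46.7%), against 36.2% (18.1% and 18.1%), and the day 4 difference itself differed between the clones in 12 (10 higher in 7E and 2 lower, 20.0%), against 11.9% (6.65% and 5.29%). Without replicate 1 the list had 6, 21, 17 and 2 calls in these 4 comparisons, and without replicate 3 it had 7, 27, 19 and 6. The medians of the list were 0.01, 0.05, 0.01 and 0.07 in that order, against -0.003, -0.007, -0.008 and -0.001 over all genes (log2). On the ERCC scale the list split 6 higher and 9 lower in clone 5F, 4 and 48 in clone 7E, 8 and 26 between the clones, and 1 and 50 in the difference of the day 4 steps, where all genes split 1115 and 2735, 270 and 15132, 1574 and 6268, and 54 and 14319.

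In clone 5F most of the calls that were higher at day 4 were target genes known from other cell types. Of 24 targets, 16 were tested, 6 rose and 1 fell, with Ptgs2, the inducible cyclooxygenase, at 1.49 ± 0.16 (log2 ± SE, adjusted p = 3.51e-07), the growth arrest gene Gadd45b at 0.78 ± 0.07 (adjusted p = 1.55e-08) and the cytokine gene Csf1 at 0.55 ± 0.13 (adjusted p = 0.00399, and 0.0839 without replicate 1). Cflar, an inhibitor of caspase-8, fell by 0.45 on the log2 scale (adjusted p = 0.0001). The filter keeps a gene that is high in 1 group alone, so a rise of such a gene adds nothing to these counts. Vcam1 was such a target, at 0.703 CPM in clone 5F at day 4 and at most 0.126 CPM in the other mock groups. Nfkbiz, an atypical nuclear IkB like Nfkbid, rose by 0.87 ± 0.10 (adjusted p = 1.55e-06). None of 12 inhibitors was called, and of 24 kinases and activators none rose and 2 fell. Of 5 subunits of the IkB ubiquitin ligase, 2 fell.

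In clone 7E, 10 of the 16 targets rose and 2 fell on size factors, with Ptgs2 at 2.37 ± 0.12 (adjusted p = 3.25e-13), Csf1 at 1.67 ± 0.16 (1.73e-08), the protease gene Mmp9 at 1.52 ± 0.15 (2.79e-08) and Gadd45b at 1.21 ± 0.06 (5.82e-13, and 0.191 on the ERCC scale). The kinase gene Ikbke rose by 1.24 ± 0.24 (adjusted p = 0.000277, and 0.575 on the ERCC scale), among 5 kinases and activators that rose and 3 that fell. Of 12 inhibitors, 6 rose and none fell, with a median of 0.15 over the 12. The IkB ligase had 0 calls among 5 subunits. These genes are low, Ptgs2 at 2.88 and 14.5 CPM and Csf1 at 1.19 and 3.67 CPM in clone 7E at day 0 and day 4. The target Tnf was at 0.454 CPM in clone 7E at day 4 and at most 0.167 CPM in the other mock groups. The limit given for Vcam1 therefore applies to Tnf here. The summed fibroblast markers, themselves low, moved the same way between the days in both lines (to at most 9.27 CPM in clone 5F and 6.72 CPM in clone 7E at day 4), and their part in the target genes was not tested. In clone 5F, Col1a2 and Postn did not move that way.

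Between the clones at day 0, Csf1 (-1.34 ± 0.17, adjusted p = 6.66e-07) and Ikbke (-1.31 ± 0.24, adjusted p = 0.00013) were lower in clone 7E. Ptgs2 (0.90 ± 0.17, adjusted p = 0.000145), the IkB kinase gene Ikbkb (0.83 ± 0.05, adjusted p = 1.83e-11) and the receptor adaptor gene Tradd (0.78 ± 0.13, adjusted p = 4.49e-05) were higher. By role, 5 targets were higher and 5 lower, and 7 kinases and activators were higher and 4 lower. Of the other groups, 2 inhibitors were higher and 1 lower, 1 ligase subunit was lower, and of Rel, Bcl3 and Nfkbiz 2 were higher and 1 lower.

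No pathway gene was called for a change in decay slope over all times, with 0 of 60 in clone 5F, in clone 7E and between the clones, and 1, 4 and 0 at an unadjusted p under 0.05. Of all 18623 genes, 0.279%, 1.33% and 0.0376% were called. By DESeq2 the count in the list was also 0 in all 3. In the mock and 120 min libraries alone, Birc3 (0.40 ± 0.10 log2 per h, adjusted p = 0.039) and Cflar (0.24 ± 0.06, adjusted p = 0.0401) were called as slower in clone 7E at day 4, named after their values were seen.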

How the data were processed

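The RNA half-life libraries were made with TruSeq kits that do not keep the strand. The authors mapped the reads to mm10 with ERCC sequences added, using STAR, and deposited raw counts per gene. The authors' deposited relative binding is a ratio of pooled, scaled CRAC counts, and the deposited RPKM values give RNA levels in the tagged lines, both without replicate columns. The authors' further score is that ratio adjusted for RPKM. The authors' log2 fold changes, adjusted p-values and half-lives in the same tables were not used, and 0 sample columns went unused. CRAC and ribosome profiling libraries were not analysed here.

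The 8 genes, the lists and the alternatives were chosen with earlier results of these data known. Symbols for 53274 of 53380 genes, lengths and coordinates come from Gencode M21 (GRCm38), and promoters from RefSeq (GRCm38.p6). Counts were divided by DESeq2 (1.42.0) size factors, computed per time point, and then multiplied by a common spike-in factor for each time (1, 0.649, 0.531 and 0.438), taken from 34 ERCC sequences with a mean above 50 counts, whereas the study's methods write of a division. Genes were filtered by filterByExpr and tested by edgeR 4.0.16 (R 4.3.3) in a quasi-likelihood fit over the 12 mock libraries for levels, and over all 47 with time as a slope for decay, at a Benjamini-Hochberg threshold of 0.05. P-values measure the spread between technical replicates only. Half-lives used a pseudocount of 1, and rankings a mean normalized count of at least 50. Beside the 8 genes, the text names per comparison up to 5 pathway genes with the largest change among those called, with at least 1 CPM and a sign that holds when any replicate is dropped, and the 5 genes most like Nfkbid. In simulated counts with 200 changed genes, 100% of log2 changes of 1 and 62% of 0.5 in the clone 5F mock comparison were called, with 6 false calls among 16774 genes. For the difference between the clones these were 87% and 13%. For the clone 5F decay slope, 99% of changes of 0.2 log2 per h were called. In the libraries themselves, the SE of that slope difference was 0.15 for Nfkbid, 0.124 for Nfkbia and 0.103 for Nfkbie. It was 0.022 to 0.059 for the other members of the set. How often a change of 0.2 would be called at the larger SEs, or in genes whose decay is not log-linear, was not tested. The alternatives were TMM, each library's own ERCC total, no filter, DESeq2, a replicate block, each replicate left out, and for half-lives other times and a pseudocount of 10.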

Additional observations from a re-analysis of the deposited data

Results flagged for a closer look

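Pathway genes whose day 4 difference itself differed between the clones are given with their log2 difference in clone 7E minus that in clone 5F ± SE and the adjusted p of edgeR's quasi-likelihood test of that difference. Mmp9 differed by 1.20 ± 0.22 (adjusted p = 0.000576, from 3.3e-05 to 0.496 over 9 settings). Csf1 differed by 1.11 ± 0.21 (adjusted p = 0.000847, from 0.000101 to 0.705). Ikbke differed by 1.06 ± 0.32 (adjusted p = 0.0309, from 0.00855 to 0.921, past the threshold in 6 of 9 settings). Ptgs2 differed by 0.87 ± 0.21 (adjusted p = 0.00652, from 0.000948 to 0.471, past it in 6 of 9). Rel differed by 0.72 ± 0.21 (adjusted p = 0.0234, up to 0.213, past it in 5 of 9). The highest adjusted p of all 5 genes came with each library's own ERCC total as the scale, where the median of all genes was -1.03. On that scale the differences of Ptgs2 (-0.15) and Rel (-0.30) turned sign.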

How the results depend on the processing

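No mock difference of the 8 genes beyond 1 SE turned sign with TMM, DESeq2, no filter or a replicate block, and counts of calls in the mock comparisons stayed within 1.5 times the values reported. Each library's own ERCC total gave 52 pathway genes and 15402 genes called in clone 7E at day 4 and 51 and 14373 for the difference between the clones. On that scale the difference turned sign in clone 7E at day 4 for Nfkbid (-0.87), Nfkbia (-0.84), Nfkb2 (-0.82), Nfkbib (-0.995) and Relb (-0.64), in clone 5F for Nfkb2 (-0.038) and Rela (-0.065), between the clones at day 0 for Nfkb1 (-0.039) and Rela (-0.005), and in the difference between the clones for Nfkb2 (-0.78), Nfkbia (-1.02) and Relb (-0.68). For decay slopes, that scale called 32 genes in clone 5F, 128 in clone 7E and 4 between the clones, no filter called 162 in clone 7E, and DESeq2 called 28 between the clones. The mock and 120 min libraries alone, a setting added after seeing the data, called 80, 380 and 22 genes, and 2 pathway genes in clone 7E. The causes of these differences were not tested. The median half-life of the 8 genes over the 4 states, 215.0 min, became 237.7 with a pseudocount of 10, 162.4 without 360 min, 263.9 without the mock libraries and 99.4 in mock and 120 min alone. Dropping the replicate numbers 1 at a time leaves 1 library in clone 5F at day 0 and 120 min for 2 of the 3 numbers, and this fit assumes that it varies like the others. The pathway genes called then ranged from 6 to 15, 21 to 28, 17 to 23 and 2 to 8 in the 4 mock comparisons and stayed at 0 for decay. All genes called ranged from 1682 to 3721, 4584 to 6197, 4094 to 5323 and 752 to 1446, and for decay from 3 to 18, 38 to 116 and 0 to 1. The lowest mock counts came without replicate 1. The median half-life then ranged from 212 to 219 min.

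The replicate numbers were not taken to pair the samples, since not every correlation was over 0.1: deviations of same-numbered samples correlated between -0.216 and 0.245 (18 pairs, 3 over 0.1), and those of different numbers between -0.199 and 0.216 (36 pairs). Within a day, between the lines, all 6 same-numbered pairs correlated positively (0.0736 to 0.245), and 11 of 12 differently numbered pairs negatively, which is a hint from the data and not from the labels. With the replicate block, 12, 29, 26 and 13 pathway genes and 3695, 6698, 6044 and 1930 genes were called in the mock comparisons, and 0, 0 and 0 pathway genes and 51, 220 and 7 genes for decay.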

Other observations

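Further pathway genes, chosen after their values were seen, were called in the mock libraries by edgeR's quasi-likelihood test with adjustment over all genes. In clone 5F the adhesion receptor gene Icam1 was higher at day 4 by 0.38 ± 0.05 (log2 ± SE, adjusted p = 2.3e-06) and the survival gene Bcl2l1 by 0.15 ± 0.05 (adjusted p = 0.0335). The proto-oncogene Rel rose by 0.40 ± 0.14 in clone 5F (adjusted p = 0.043) and by 1.12 ± 0.15 in clone 7E (adjusted p = 2.71e-06). Its normalized counts were 76.5, 77.3 and 70.5 at day 0 and 101.6, 92.0 and 102.6 at day 4 in clone 5F, and 43.7, 53.7 and 44.9 and then 89.4, 117.7 and 104.1 in clone 7E. Tnfaip3, the inhibitor A20 and a known NF-kB target, was at 0.00 ± 0.14 in clone 5F and rose by 0.64 ± 0.14 in clone 7E on size factors (adjusted p = 0.000577), and the difference between the clones was 0.64 ± 0.19 (adjusted p = 0.031). Bcl3, an atypical nuclear IkB, was called lower at day 4 in clone 7E (-0.37 ± 0.10, adjusted p = 0.00382), whereas Nfkbiz rose there by 1.00 ± 0.09 (adjusted p = 4.85e-09). The 3 atypical IkB genes thus differed from each other in clone 7E: Nfkbiz was higher, Bcl3 lower and Nfkbid, for comparison, at 0.22 ± 0.07. These directions in clone 7E are relative to the bulk of genes.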
